A study of Mus musculus with 24 samples.

Results

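The maturation of mouse neural retina in a dish was followed here at the level of transcript choice. Retinal organoids were grown from mouse embryonic stem cells, and their dissected optic cups were cultured in static suspension (SSCd). Polyadenylated RNA of 3 libraries at day 28 of differentiation (D28) was set against 3 libraries at day 18 (D18). For every gene with 2 or more annotated transcripts and at least 50 counts in each of these 6 libraries, the share of the gene's counts that each transcript took was computed. Of 33430 genes in the transcript table, 9276 met that rule, and 9259 were kept after 17 were set aside because their annotated transcripts held clearly fewer counts than the deposited gene value. A difference below is always a difference in share, in percentage points, and says nothing of the gene's level.

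All groups came from wild-type embryonic stem cells, derived either from blastocysts of Nrl-GFP transgenic mice, in which the Nrl promoter marks rods, or from the clone R1, and the labels do not say which library came from which clone. Optic cups were cut out at D10 in all SSCd cultures, and both days shared a medium with taurine, 9-cis retinal and insulin-like growth factor 1, to which serum, B27 and amino acids were added from D18, so that time and these supplements cannot be told apart. SSCd D22 (3 libraries) lies between the groups compared and shares the culture. Dissected cups in a rotating-wall bioreactor (RWB, 3 libraries at D25 and 2 at D18) and intact organoids in static suspension (SSCi, 3 libraries at D32 and 2 at D18) share no library with the SSCd comparison, and SSCi received the supplements only from D26. The design text calls repeated experiments biological replicates, and p-values measure the spread between these samples.

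Most mammalian genes make several transcripts, by starting at another first exon, ending at another last exon, or keeping and skipping internal exons. Neurons use many very short exons, called microexons, and photoreceptors add exons that other neurons leave out, chiefly in genes of the cilium and outer segment. Microexons are known to depend on neuronal splicing factors such as Srrm4, and photoreceptor exons on the Musashi proteins.

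Total estimated counts in the 6 libraries ranged from 13816143 to 17651100. Rod markers (Nrl, Nr2e3, Gnat1, Sag and Pde6b) summed to between 2144 and 5928 CPM (counts scaled to a common library total) at D28 and between 48.9 and 94.3 CPM at D18, and all 5 were higher in every D28 library. Retinal progenitor markers summed to between 321 and 335 CPM at D28 and between 1529 and 3001 CPM at D18, with 4 of 6 lower in every D28 library. Bipolar markers summed to between 185 and 258 CPM at D28 and between 42.2 and 108 CPM at D18. Cone markers summed to between 17.5 and 37.1 CPM at D28 and between 76.9 and 88.2 CPM at D18, with 2 of 5 lower and 1 higher in every D28 library. The 5 pigment epithelium markers summed to between 11.7 and 117 CPM at D28 and between 18.4 and 188 CPM at D18, with Rpe65 and Best1 under 1 CPM in all 6 libraries. Mesenchyme markers summed to between 20.3 and 271 CPM at D28 and between 8.04 and 40.1 CPM at D18, and non-retinal forebrain markers to between 2.40 and 10.7 CPM at D28 and between 27.2 and 47.8 CPM at D18, with 3 of 4 lower in every D28 library. A change of splicing within cells and a change in the mix of cells, or in the RNA each contributes, cannot be told apart in such bulk samples, and the part of these markers in any share below was not tested. Mitochondrially encoded genes took between 3.20% and 4.29% of counts at D28, and 10.7%, 3.41% and 2.91% in D18 replicates 1, 2 and 3.

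Changes in isoform share were called by edgeR in a small set of genes. Of 20950 transcripts tested in 7045 genes, 71 (0.339%) changed in share, 38 higher at D28 (0.181%) and 33 lower (0.158%), in 68 genes (0.965%). Of these, 37 rose (0.177%) and 31 fell (0.148%) by at least 10 points, and 67 genes (0.951%) were called by a gene-level Simes test. The test was edgeR's quasi-likelihood test of differential transcript usage with Benjamini-Hochberg adjustment over all transcripts tested and a threshold of 0.05. Mean shares of the 71 moved by a median of 19.6 points, between 6.93 and 74.0, against a median of 4.04 points over all transcripts tested. The libraries of the 2 days did not overlap in 70 of the 71, and in 65 the D22 mean lay between the other means. The calls were made on these same D28 and D18 libraries, so neither count is separate support for them. Neither count is given over all transcripts tested. An unadjusted p under 0.05 was reached by 851 transcripts. Without D18 replicate 1, the library with the high mitochondrial share, 102 transcripts were higher and 67 lower at D28, and without D28 replicate 2 there were 25 and 28. Without D28 replicate 1 there were 27 and 43, and without D18 replicate 2 there were 42 and 23. Similar totals hid other transcripts. Of the 71 calls, 43, 40 and 54 remained without D28 replicates 1, 2 and 3. Without D18 replicates 1, 2 and 3, 63, 33 and 46 remained.

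**Figure D1:**
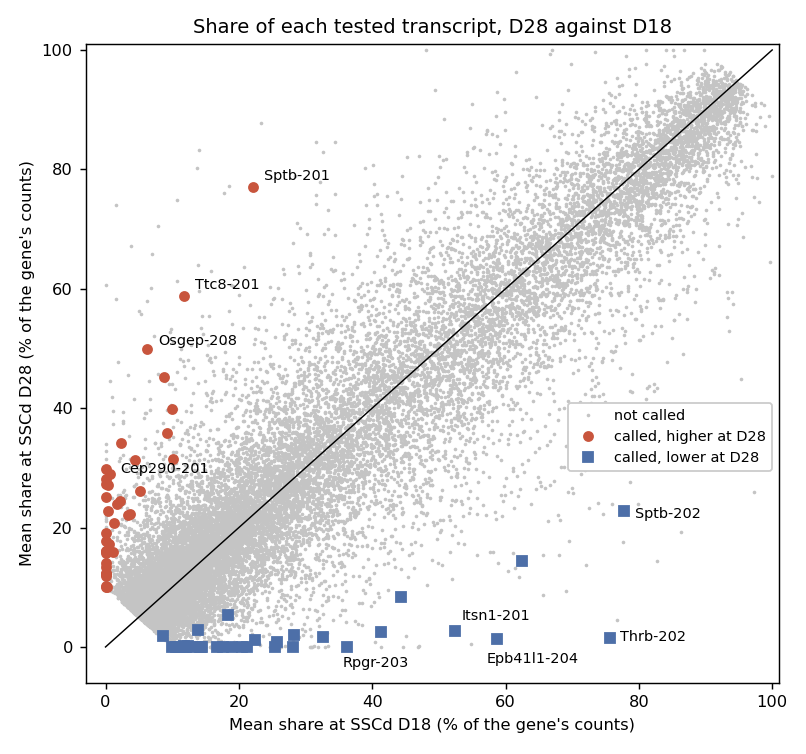
Mean share of each of the 20950 tested transcripts at SSCd D28 (vertical axis, % of the gene's counts) against SSCd D18 (horizontal axis), with called transcripts as red circles (higher at D28) and blue squares (lower) and the diagonal as equal shares. Thrb-202 and Epb41l1-204 lie near the horizontal axis and Cep290-201 on the vertical one, and Sptb-201 and Sptb-202 trade places as the leading transcript.

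The test asks for a change in log2 abundance relative to the gene's other transcripts, so a transcript that appears from near 0 was called more readily than a major one that lost part of its share. Transcripts that moved by 10 points or more with no overlap between the libraries of the 2 days were far more common than calls, at 1097 higher (5.24%) and 1157 lower (5.52%). In 901 genes (12.8%) the transcript with the highest mean share differed between D28 and D18, which was not tested as such. Only Sptb (0.0142% of genes) had both its D28 leader called higher and its D18 leader called lower. Shares are of counts, not of molecules, so a longer transcript takes more of them at the same number of copies.

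The called transcripts differed from their partner, the transcript of the same gene that moved most the other way, in several ways. Of the 71, 25 began at another first exon, 15 ended at another last exon and 40 differed by an internal exon present in only 1 of the pair. By annotation 57 of the 71 were protein coding (33 higher, 24 lower), 9 were targets of nonsense-mediated decay (2 higher, 7 lower), 4 were retained introns (2 higher, 2 lower) and 1 was a processed transcript. Of all tested transcripts 69.2% were protein coding, 7.01% decay targets and 16.8% retained introns.

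Of 17 genes listed for known photoreceptor-specific isoforms, 14 could be tested and 5 (35.7%, against 0.965% of all genes) had a called transcript, 4 higher and 1 lower: Cep290, Rpgr, Ttc8, Bsg and Crb1. A transcript moved by at least 10 points without overlap in 10 of the 14, against 20.98% of all genes. The gene lists, here and below, were chosen with earlier results of these data known. Short exons of Ttc8, Cep290, Prom1 and Arl6, genes of the cilium and of outer segment discs, are shown because their values follow, each cut from the GENCODE M21 transcript on GRCm38 that holds it, with the exon in capitals and the 12 transcript bases to either side in lower case. They lie at chr12:98937120-98937149 on the plus strand (Ttc8), chr10:100495641-100495661 on the plus strand (Cep290), chr5:44012499-44012516 on the minus strand (Prom1) and chr16:59618666-59618678 on the minus strand (Arl6), and all are coding.
Ttc8, 30 bases: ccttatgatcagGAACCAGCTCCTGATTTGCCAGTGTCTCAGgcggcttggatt
Cep290, 21 bases: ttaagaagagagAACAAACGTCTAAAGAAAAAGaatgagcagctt
Prom1, 18 bases: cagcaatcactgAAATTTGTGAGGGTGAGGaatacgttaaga
Arl6, 13 bases: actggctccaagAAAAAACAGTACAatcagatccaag

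Ttc8 encodes a subunit of the BBSome, the complex that moves membrane proteins through cilia, and its 30-base exon is known as a retina-specific exon in mammals. Ttc8-201, which holds the exon, took 58.8%, 52.4% and 65.3% of the gene's counts at D28, against 11.9%, 9.74% and 13.7% at D18. The partner without it, Ttc8-202, took 17.9%, 25.2% and 29.4% at D28, against 80.9%, 69.4% and 71.3% at D18. The exon therefore passed from the minor to the leading form, with no overlap between days. Ttc8-201 rose by 47.0 points (edgeR adjusted p = 0.00763), with 50.1%, 54.3% and 59.0% already reached at D22, while Ttc8-202 missed the threshold (edgeR adjusted p = 0.121). Inclusion of the exon over all transcripts that hold or skip it was 71.7 ± 4.64% at D28 and 16.4 ± 1.78% at D18 (SD, n = 3 each, edgeR adjusted p = 0.00109), a call that held whichever library was left out. The call of Ttc8-201 itself was lost without D18 replicate 2 or 3, with an edgeR adjusted p of up to 0.122.

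Cep290 builds the transition zone at the base of the cilium. Cep290-201 differs from Cep290-206 only by the 21-base microexon. It took 43.1%, 23.9% and 15.0% at D28, against 0.00475%, 0.0467% and 0.0305% at D18. The 3-count limit, here and below, is 3 counts as a share of the gene's counts summed over the 3 libraries of a day. For Cep290 at D18 it was 0.0661%. Cep290-201 was thus below this limit in every D18 library, and the spread at D28 was wide. The rise of 27.3 points had an edgeR adjusted p of 1.02e-07 and held whichever library was left out. Inclusion of the microexon across all Cep290 transcripts was 83.0%, 70.4% and 64.8% at D28, against 18.4%, 27.8% and 37.0% at D18, without overlap but short of the threshold (edgeR adjusted p = 0.148).

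Rpgr, whose protein binds to the transition zone and is known for X-linked retinal degeneration, lost share in a short coding form. Rpgr-203 was below the 3-count limit of 0.0736% in all D28 libraries, against 46.1%, 20.6% and 41.9% at D18. Rpgr-201 took 59.7%, 59.5% and 49.4% at D28, against 13.6%, 1.15% and 0.350% at D18. The fall of Rpgr-203 held whichever library was left out (edgeR adjusted p = 0.000579), and the difference in Rpgr-201 missed the threshold (edgeR adjusted p = 0.0509). The pair differ by 1 coding exon of 879 bases at chrX:10176003-10176881 on the minus strand, of which 67.7% are purines, against a median of 52.7% over 3604 coding cassette exons. Its inclusion was 73.1 ± 4.45% at D28 and 26.4 ± 4.05% at D18 (SD, n = 3 each, edgeR adjusted p = 0.0194). That call was lost without D28 replicate 1 or 2 or D18 replicate 2 or 3 (edgeR adjusted p up to 0.199).

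Bsg encodes basigin, a chaperone of lactate transporters, and its long form with an extra immunoglobulin domain is known from photoreceptors. Bsg-201 took 30.3%, 21.6% and 21.3% at D28, against 0.968%, 2.13% and 3.27% at D18 (edgeR adjusted p = 0.00938). The 348-base coding exon that sets it apart, at chr10:79708697-79709044 on the plus strand, was included at 51.7%, 72.0% and 50.9% at D28, against 1.60%, 2.596% and 4.45% at D18. These values are over the transcripts that hold or skip the exon, and did not overlap between days (edgeR adjusted p = 0.00617). Inclusion stood at 22.7% on average at D22, and Bsg-201, the 1 transcript that holds the exon, was a minority of the gene's counts in every SSCd library at D28 and D18. Bsg-202 averaged 56.3 ± 14.4% at D28 and 27.6 ± 10.99% at D18 and was not called (edgeR adjusted p = 1). Without D18 replicate 2 the exon's edgeR adjusted p was 0.0674, and Bsg-201 lost its call without D18 replicate 2 or 3 (up to 0.0892).

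Crb1, a polarity protein of photoreceptors and Müller glia, gained share in a transcript annotated as a retained intron with its own first and last exons. Crb1-205 took 28.0%, 22.8% and 15.4% at D28, against 5.45%, 2.07% and 2.57% at D18 (edgeR adjusted p = 0.0313), a call lost without D28 replicate 1 or 2 or D18 replicate 2 or 3 (up to 0.262). Crb1-205 was named after its values were seen. A transcript with no overlap and a change of at least 10 points was present in 10 of the 14 tested genes of the list, against 20.98% of all genes.

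**Figure D2:**
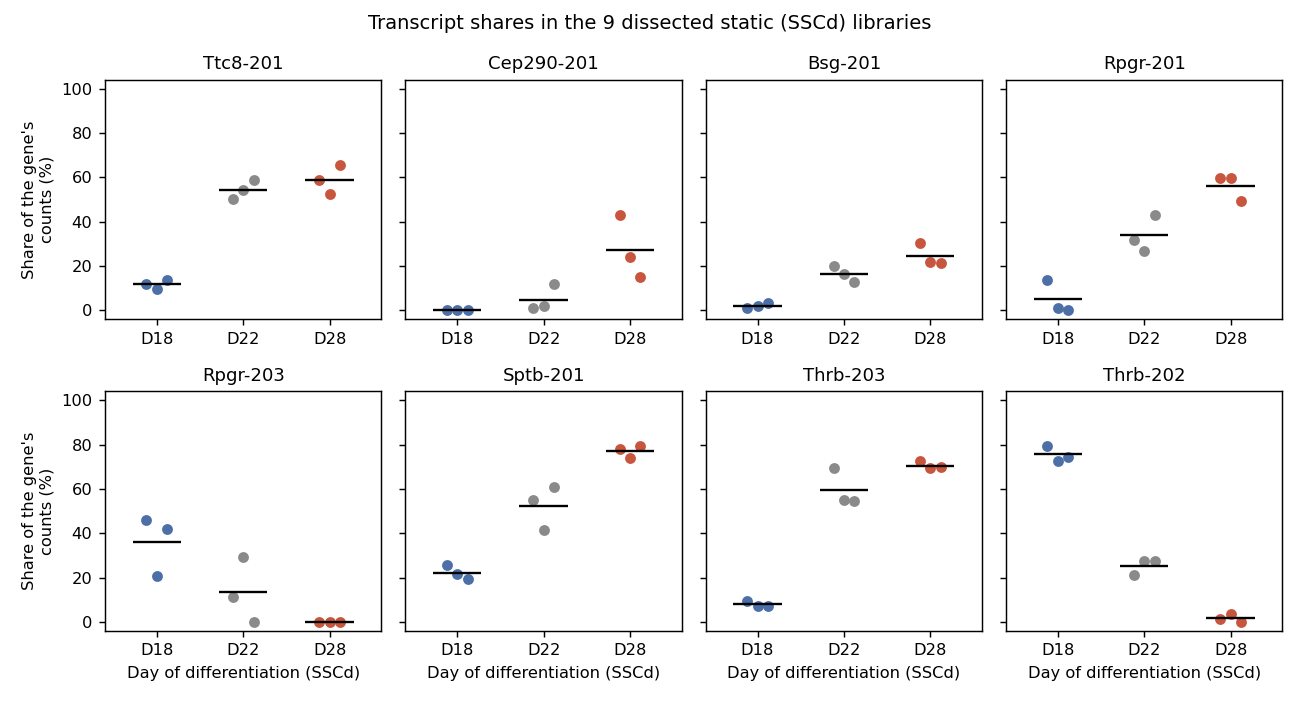
Share of the gene's counts (%) for 8 transcripts in each SSCd library at D18, D22 and D28, with points for libraries and lines for the means of 3. Ttc8-201 and Thrb-203 had reached most of their D28 share at D22, while Cep290-201 stood at 0.842% to 11.7% at D22 and 15.0% to 43.1% at D28.

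Inclusion of exons in Prom1 and Arl6 did not overlap between days but missed the threshold. Prom1 shapes outer segment discs, and its 18-base microexon was included at 69.6%, 65.8% and 58.7% at D28, against 16.3%, 17.5% and 27.9% at D18 (edgeR adjusted p = 0.0565). A second Prom1 microexon of 24 bases went the other way, with 29.7 ± 2.18% at D28 and 48.1 ± 3.78% at D18 (SD, n = 3 each, edgeR adjusted p = 1). Arl6 encodes the small GTPase that recruits the BBSome, and its 13-base exon, which is not a multiple of 3, was included at 82.5 ± 2.15% at D28 and 49.0 ± 3.84% at D18 (edgeR adjusted p = 0.481). None of these 3 exons overlapped between days. A DESeq2 likelihood ratio test on included and skipped counts was an alternative chosen after seeing the data. The DESeq2 adjusted p was 3.69e-11 for the 18-base and 9.91e-06 for the 24-base Prom1 exon and 2.14e-14 for the Arl6 exon. On simulated transcripts DESeq2 called more false genes than the nominal rate. Rab28, a small GTPase whose loss is known to cause cone-rod dystrophy in humans, had an exon of 95 bases in Rab28-203, which took 37.1%, 39.0% and 43.4% at D28, against 9.78%, 8.44% and 11.5% at D18 (edgeR adjusted p = 0.00807). The Rab28-203 call was lost without D28 replicate 1 or 2 or D18 replicate 2 (up to 0.105).

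Of 15 tested phototransduction and outer segment genes, 2 (13.3%) had a called transcript, 1 higher and 1 lower, against 0.965% of all genes. Of the 15, 3 had a transcript that moved by at least 10 points without overlap, a share near the 20.98% of all genes. Gnb1 encodes the beta subunit of rod transducin and of other G proteins. Gnb1-209, an incomplete model with its own first exon, took 24.5%, 23.3% and 18.8% at D28, against 1.76%, 6.28% and 3.17% at D18, and the call held whichever library was left out (edgeR adjusted p = 0.000709). Abca4 encodes the outer segment transporter that clears retinoid from disc membranes. Abca4-203, a retained-intron model of 3 exons that shares the last exon of the full-length form, took 2.57%, 4.05% and 0.984% at D28, against 44.4%, 48.6% and 31.2% at D18, while the full-length Abca4-201 averaged 78.9 ± 4.74% at D28 and 28.4 ± 6.57% at D18 (SD, n = 3 each). The gene's summed counts averaged 10185 at D28 and 814 at D18. Abca4-203 was called (edgeR adjusted p = 0.0111) and lost its call without D28 replicate 1 or 2 or D18 replicate 2 (up to 0.119), and Abca4-201 was not called (edgeR adjusted p = 0.262).

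Among 24 tested retinal transcription factors, Thrb alone (4.17%, against 0.965% of all genes) had a called transcript. In 6 of the 24 a transcript moved by at least 10 points without overlap, a share near the 20.98% of all genes. Thrb encodes thyroid hormone receptor beta, whose forms from separate promoters differ at the amino terminus, and a short-lived form of it is known to pattern cone opsins. Thrb-202 took 1.37%, 3.36% and 0% at D28, against 79.5%, 72.7% and 74.6% at D18, the largest move of any called transcript. Thrb-203, whose first exon lies 320633 bases away, took 72.4%, 69.3% and 69.9% at D28, against 9.33%, 7.29% and 7.01% at D18. The leading transcript thus changed in every library, with 69.6%, 55.1% and 54.3% for Thrb-203 already at D22. Thrb-202 fell by 74.0 points and kept its call whichever library was left out (edgeR adjusted p = 0.00132), and Thrb-203 was not called (edgeR adjusted p = 0.0975). Thrb counts averaged 1191 at D28 and 3125 at D18, beside the lower cone markers given above, whose part in the change was not tested.

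Rorb, a nuclear receptor needed for rod fate, differed widely between days without a call. Rorb-201 took 55.5%, 51.3% and 36.4% at D28, against 5.49% in D18 replicate 1 and less than the 3-count limit of 0.0201% in D18 replicates 2 and 3. Rorb-203 took 26.2%, 31.5% and 48.2% at D28, against 91.6%, 99.3% and 98.0% at D18. The days did not overlap for either, and the edgeR adjusted p was 0.235 for Rorb-201 and 1 for Rorb-203. With all 24 libraries in 1 fit, Rorb-201 was called (edgeR adjusted p = 0.00586, the lowest of 4 alternatives, with 0.243 by limma on logit shares the highest). A 53-base exon of Rorb outside the coding sequence was called as more included, by 14.5 points (edgeR adjusted p = 0.0128), a call lost without D28 replicate 1 or 2 or D18 replicate 3 (up to 0.0739).

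Of 37 tested genes listed for neuronal splice switches, 5 (13.5%) had a called transcript, against 0.965% of all genes. These were Map4, Camk2d, Dlg4 and Tpm3 with a rise and Gnao1 with a fall. Of 25 tested genes listed for neural microexons, 2 (8%) had a called transcript, Itsn1 and Mef2a. A transcript that moved by at least 10 points without overlap was present in 16 of the 37 and in 11 of the 25, against 20.98% of all genes. Sptb encodes beta spectrin of the membrane skeleton. Sptb-201, the longer coding form, took 78.0%, 73.9% and 79.2% at D28, against 25.9%, 21.4% and 19.3% at D18, and Sptb-202, with another last exon, took 21.8%, 25.9% and 20.8% at D28, against 74.1%, 78.6% and 80.7% at D18. The leading form changed in every library (edgeR adjusted p = 0.00564 for Sptb-201 and 0.0128 for Sptb-202). Sptb-201 lost its call without D28 replicate 1 or D18 replicate 2 (up to 0.0563), and Sptb-202 kept its call only without D18 replicate 1 (up to 0.105 without the others).

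Itsn1, an endocytic scaffold, is known to make a long form with a Dbl domain in neurons and a microexon in its SH3 region. Itsn1-201, a short form, took 3.57%, 4.45% and 0.0120% at D28, against 56.1%, 53.9% and 47.1% at D18. The long form Itsn1-208, with 39 exons against 29, took 54.2%, 60.2% and 66.2% at D28, against 22.4%, 22.7% and 29.0% at D18. Itsn1-206, a short form with the 15-base microexon, took 18.0%, 19.5% and 15.8% at D28, against at most 0.128% at D18. The short form without the microexon, Itsn1-201, gave way in every library. Itsn1-201 and Itsn1-206 were called (edgeR adjusted p = 0.00551 and 0.00372) while Itsn1-208 was not (edgeR adjusted p = 1). Itsn1-201 lost its call without D28 replicate 1 or D18 replicate 2 (up to 0.0632), and Itsn1-206 without D18 replicate 2 or 3 (up to 0.0679).

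Map4, a microtubule-binding protein, gained Map4-204, with 19.4%, 24.3% and 24.7% at D28, against 0%, 0.905% and 0% at D18, and the call held whichever library was left out (edgeR adjusted p = 0.00323). Dlg4 encodes the synaptic scaffold PSD-95, also found in photoreceptor terminals. It was the 1 gene with a call among 21 tested ribbon synapse genes (4.76%, against 0.965% of all genes). Of the 21, 8 had a transcript that moved by at least 10 points without overlap, against 20.98% of all genes. Dlg4-204, with another first exon, took 29.4%, 27.1% and 15.1% at D28, against 0%, 4.004% and 1.01% at D18 (edgeR adjusted p = 0.0139), and lost its call without D28 replicate 1 or 2 or D18 replicate 3 (up to 0.213). Epb41l1 links spectrin to membranes, and Epb41l1-204 fell to 0%, 1.14% and 2.75% at D28, against 56.3%, 69.3% and 50.5% at D18 (edgeR adjusted p = 0.00938), with the call lost without D28 replicate 2 or D18 replicate 2 (up to 0.140). These 3 genes show forms present on 1 day at a few percent or less. Camk2d-228 of a calcium-dependent kinase averaged 15.9 ± 2.15% at D28 and 1.05 ± 1.82% at D18 (edgeR adjusted p = 0.0111). Gnao1-207, a form of the G protein alpha subunit used by ON bipolar cells, averaged 8.38 ± 4.39% at D28 and 44.4 ± 1.93% at D18 (SD, n = 3 each, edgeR adjusted p = 0.0313). Camk2d-228 kept its call only without D18 replicate 3 (up to 0.0909 without the others), and Gnao1-207 only without D18 replicate 1 (up to 0.219).

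Exons of the clathrin light chain Clta and of the tropomyosin Tpm3 are printed here because the Clta exon and both members of a Tpm3 pair of alternatives were called. Clta has 2 neuron-specific coding inserts, of which the 36-base exon lies at chr4:44031400-44031435 on the plus strand, and the Tpm3 exons of 76 bases lie at chr3:90089048-90089123 (used more at D28) and chr3:90088401-90088476 (used more at D18) on the plus strand. Capitals again mark the exon.
Clta, 36 bases: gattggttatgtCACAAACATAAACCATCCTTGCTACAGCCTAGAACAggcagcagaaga
Tpm3, D28 exon: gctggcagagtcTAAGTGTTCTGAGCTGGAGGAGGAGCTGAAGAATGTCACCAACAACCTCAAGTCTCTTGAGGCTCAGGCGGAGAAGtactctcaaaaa
Tpm3, D18 exon: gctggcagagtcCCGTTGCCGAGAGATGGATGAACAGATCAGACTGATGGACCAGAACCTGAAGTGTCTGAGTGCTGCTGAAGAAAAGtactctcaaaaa

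The Clta exon was included at 44.3%, 35.7% and 31.2% at D28, against 4.46%, 4.74% and 5.23% at D18, and had the smallest edgeR adjusted p among cassette exons that gained inclusion (0.000617). The neighbouring 54-base insert was included at 79.4 ± 3.20% at D28 and 49.5 ± 5.15% at D18 (edgeR adjusted p = 0.0265, up to 0.292 with a library left out, and called only without D18 replicate 1). The Tpm3 exon that follows the same flanks was included at 30.3%, 27.8% and 38.7% at D28, against 2.16%, 3.62% and 5.62% at D18, and its alternative at 69.7%, 72.1% and 61.2% at D28, against 97.8%, 96.4% and 94.2% at D18. The pair moved by 28.5 points each way (edgeR adjusted p = 0.00617 for the gain and 0.00635 for the loss), and both calls were lost without D18 replicate 2 (0.0576 at most). The Clta 36-base call held whichever library was left out.

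Over all genes, cassette exons gained inclusion more often than they lost it. Inclusion was the counts of transcripts that hold an exon over those that hold it or splice across it. Of 5461 cassette exons in 3248 genes, 33 were called as more included at D28 (0.604%) and 13 as less (0.238%). With no overlap and a change of at least 10 points, 550 were more included (10.1%) and 221 less (4.05%). An unadjusted p under 0.05 was reached by 349 exons, and 46 (0.842%) were called in either direction. The calls were 15 more and 7 less included without D28 replicate 1, 17 and 4 without D28 replicate 2, 31 and 8 without D28 replicate 3, 48 and 18 without D18 replicate 1, 17 and 5 without D18 replicate 2, and 19 and 9 without D18 replicate 3. Exons of 1 gene share transcripts, so they are not independent.

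Microexons, taken here as exons of at most 27 bases, leaned further towards inclusion than longer ones. Exons of 1 gene that the same transcripts held and skipped were counted once, as the shortest of them. A microexon may therefore stand for another exon too, and the Atp1b2 microexon below stands for 2 exons. Of 382 microexons, 81 gained at least 10 points without overlap (21.2%) and 10 lost as much (2.62%), against 469 (9.23%) and 211 (4.15%) of 5079 longer exons. The median change was 4.85 points for microexons and 1.25 points for longer exons, and the difference between the classes was not tested, since exons share genes and libraries. Of the microexons, 311 had a length that is a multiple of 3, and 21.9% of these gained as much, against 18.3% of the other 71. By the test 4 microexons were called (1.05%, against 0.842% of all cassette exons), 3 more included and 1 less. Called as more included were 0.785% of microexons and 0.591% of longer exons, and as less included 0.262% and 0.236%. The lean of microexons is thus seen in the untested counts and medians above, and the calls were few in both classes.

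**Figure D3:**
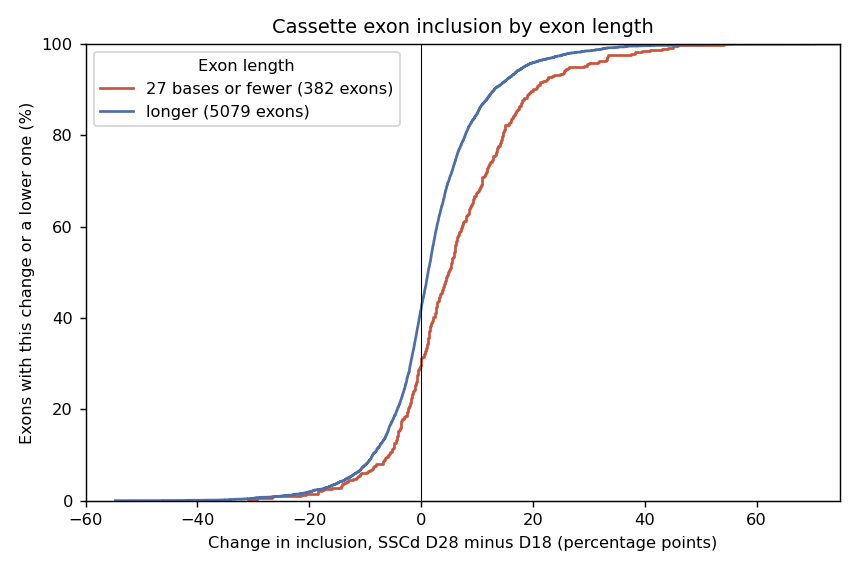
Cumulative share of cassette exons (vertical axis, %) by change in inclusion between SSCd D28 and D18 (horizontal axis, percentage points), for 382 exons of at most 27 bases (red) and 5079 longer exons (blue). The red curve lies to the right of the blue one over most of the range, with medians of 4.85 and 1.25 points.

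The microexons called as more included lie in Mars, a methionyl-tRNA synthetase, in Herc4, a ubiquitin ligase, and in Atp1b2, a sodium pump subunit of photoreceptors and glia. They are at chr10:127296717-127296740 on the minus strand (Mars), chr10:63303845-63303868 on the plus strand (Herc4) and chr11:69601924-69601944 on the minus strand (Atp1b2), and the neural Itsn1 microexon at chr16:91842628-91842642 on the plus strand is shown beside them.
Mars, 24 bases: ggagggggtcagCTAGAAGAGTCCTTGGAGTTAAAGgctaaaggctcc
Herc4, 24 bases: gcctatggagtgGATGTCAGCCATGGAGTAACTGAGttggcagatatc
Atp1b2, 21 bases: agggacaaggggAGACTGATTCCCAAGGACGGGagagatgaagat
Itsn1, 15 bases: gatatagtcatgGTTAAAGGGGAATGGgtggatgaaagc

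The Mars microexon was included at 43.3%, 43.7% and 46.4% at D28, against 9.82%, 2.93% and 1.81% at D18 (edgeR adjusted p = 0.0131). The Herc4 microexon was included at 98.2%, 94.96% and 98.1% at D28, against 64.8%, 70.3% and 61.4% at D18 (edgeR adjusted p = 0.00885), so that skipping was almost gone. The Atp1b2 microexon averaged 11.97 ± 3.69% at D28 and 2.61 ± 1.47% at D18 (edgeR adjusted p = 0.0167), and the 25-base exon of Tyw5, an enzyme of tRNA modification, was the 1 called as less included, at 1.95e-05% or less in each library at D28 and 12.1 ± 3.05% at D18 (SD, n = 3 each, edgeR adjusted p = 0.0150). Without a library the Herc4 call was lost in 2 cases (D28 replicate 1 and D18 replicate 2, up to 0.0707), those of Mars and Atp1b2 in 4 each (D28 replicates 1 and 2 and D18 replicates 2 and 3, up to 0.152 and 0.184), and that of Tyw5 in 5 (all but D18 replicate 1, up to 0.102). Microexons with neither overlap nor a call included those of Itsn1 at 33.6 ± 5.49% at D28 and 15.5 ± 3.20% at D18, and Mef2a at 87.3 ± 0.907% at D28 and 72.6 ± 10.7% at D18 (SD, n = 3 each, edgeR adjusted p = 0.603 and 0.857). Mef2a-204, the form of this transcription factor that lacks the 24-base exon, was called lower at 0.0907 ± 0.157% at D28 and 11.8 ± 7.18% at D18 (edgeR adjusted p = 0.00580), a call lost without D28 replicate 3 or D18 replicate 3 (up to 0.0568).

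**Figure D4:**
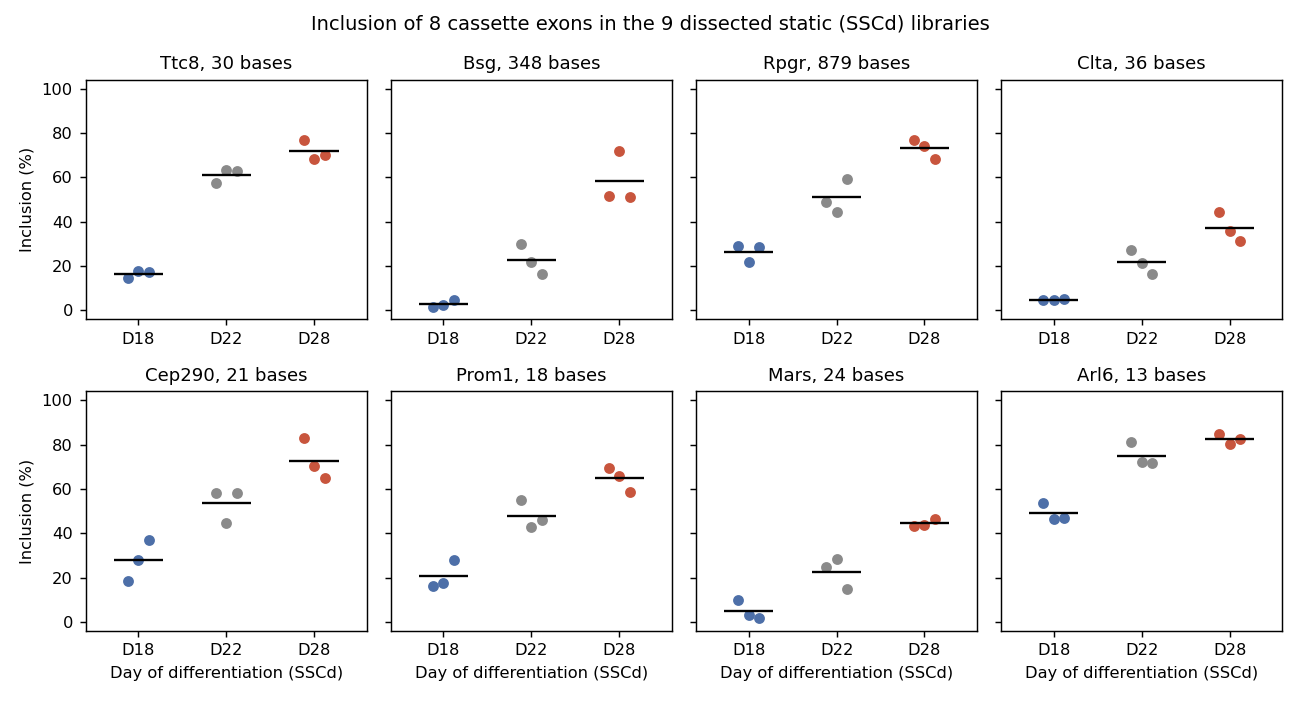
Inclusion (%) of 8 cassette exons in each SSCd library at D18, D22 and D28, with points for libraries and lines for means of 3. In all 8 panels the D28 libraries lie above the D18 libraries, and the D22 means lie between.

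Minor coding forms of Srsf5 and Dnmt3a lost share. Of 56 tested splicing regulators, 1 (1.79%, against 0.965% of all genes) had a called transcript. In 16 of the 56 a transcript moved by at least 10 points without overlap, against 20.98% of all genes. Srsf5-203 of the SR protein Srsf5 took 0.147%, 0% and 0% at D28, against 3.16%, 11.7% and 15.1% at D18 (edgeR adjusted p = 2.55e-05). Dnmt3a-205, of the de novo DNA methyltransferase, was below the 3-count limit in every library at D28, against 9.67%, 23.8% and 19.3% at D18 (edgeR adjusted p = 6.11e-05). Both calls held whichever library was left out, and the 3-count limit at D28 was 0.0144% for Dnmt3a. Both transcripts were named after their values were seen. Of 9 tested glycolysis enzymes, 0 had a called transcript by edgeR, against 0.965% of all genes. Of the 9, 2 had a transcript that moved by at least 10 points without overlap, against 20.98% of all genes. An unadjusted edgeR p under 0.05 was reached by 4 of their 28 transcripts, against 851 of all 20950. Pkm-201 averaged 75.6% at D28 and 78.7% at D18.

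Other large changes were in Osgep, Hsd17b12, Pgm3 and Pi4k2b. Osgep, an enzyme of tRNA modification, gained Osgep-208, a retained-intron model, with 51.8%, 51.2% and 46.9% at D28, against 0.822%, 8.29% and 9.56% at D18 (edgeR adjusted p = 0.00312). Hsd17b12, an enzyme of fatty acid elongation, gained the noncoding Hsd17b12-204, with 28.6%, 32.7% and 41.1% at D28, against 4.13%, 1.01% and 1.72% at D18 (edgeR adjusted p = 0.00457). In both, the partner that lost most share was protein coding. Pgm3-201, of an enzyme of hexosamine synthesis, was below the 3-count limit of 0.321% in every library at D28, against 51.2%, 18.4% and 14.9% at D18 (edgeR adjusted p = 1.74e-05). Pi4k2b-202, of a phosphatidylinositol kinase, took 11.99%, 39.3% and 38.0% at D28, against 0% in every D18 library, on a gene that averaged 117 counts at D28 and 439 at D18 (edgeR adjusted p = 0.000416). The calls of Osgep-208, Pgm3-201 and Pi4k2b-202 held whichever library was left out, and that of Hsd17b12-204 was lost without D18 replicate 2 or 3 (up to 0.0592).

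Of a panel of 24 genes known for retina- or neuron-specific forms, 21 could be tested (all but Cngb1, Crx and Reep6). Of the 21, 3 (Bsg, Dlg4 and Ttc8) had a called transcript, against 0.965% of all genes. In 14 a transcript moved by at least 10 points without overlap, against 20.98% of all genes. The 14 were Bsg, Dlg4, Ttc8, Rorb, Arl6, Clta, Gnb5, Stx3, Cc2d2a, Cdc42, Cltb, Ctbp2, Numb and Src. Gnb5-202, of the partner of Rgs9, averaged 45.6 ± 3.20% at D28 and 3.43 ± 5.93% at D18 (edgeR adjusted p = 0.601, with adjusted p between 0.00763 by DESeq2 and 0.250 by limma on logit shares in 4 alternatives), and Stx3-202, of the syntaxin of ribbon synapses, 14.6 ± 2.52% at D28 and 32.6 ± 3.50% at D18 (SD, n = 3 each, edgeR adjusted p = 0.593). Differences were smaller in Ctbp2-214, of the ribbon protein gene, with 21.5 ± 5.27% at D28 and 7.83 ± 2.79% at D18 (edgeR adjusted p = 0.267), Cdc42-201, of a small GTPase, with 34.9 ± 5.44% at D28 and 20.4 ± 1.92% at D18, Cltb-201, of the other clathrin light chain, with 38.1 ± 5.48% at D28 and 23.6 ± 10.1% at D18, and Cc2d2a-201, of a transition zone protein, with 58.6 ± 4.33% at D28 and 46.4 ± 3.79% at D18 (edgeR adjusted p = 1 for the last 3). Src-202, of a kinase with a neuronal exon, averaged 51.3 ± 6.72% at D28 and 33.8 ± 4.75% at D18, and Numb-203, a decay target of the Notch regulator, 3.47 ± 6.02% at D28 and 19.3 ± 5.72% at D18 (edgeR adjusted p = 1 for both). The other 7 genes, Mef2d, Pax6, Pkm, Ptbp2, Rgs9, Rpgrip1 and Snap25, had neither such a transcript nor a call. Among them Snap25-201 averaged 68.2% at D28 and 71.1% at D18, Mef2d-201 75.7% at D28 and 76.3% at D18, Rpgrip1-218 63.1% at D28 and 63.2% at D18, and Rgs9-204 73.7% at D28 and 74.9% at D18 (edgeR adjusted p = 1 for all 4), which does not show that they stayed the same.

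Averaged over 9213 protein-coding genes, the shares of the classes of transcript differed little between days. Retained introns took 7.71 ± 0.613% of a gene's counts on average at D28 and 7.17 ± 0.456% at D18 (SD, n = 3 each, two-sided exact permutation p = 0.4). Transcripts annotated for nonsense-mediated decay took 3.68 ± 0.0329% at D28 and 3.52 ± 0.0368% at D18 (exact permutation p = 0.1, the smallest that 3 against 3 allows), and the sign reversed when counts were pooled over genes, at 3.33 ± 0.156% at D28 and 3.44 ± 0.0706% at D18. Protein-coding transcripts took 85.1 ± 0.792% at D28 and 86.0 ± 0.624% at D18 (exact permutation p = 0.3).

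The same transcripts were then read in cultures that share no library with SSCd. In RWB, D25 against D18, 59 of the 71 moved in the same direction, against 66.8% of all tested transcripts, and 9 were called the same way, where 36 of 20950 transcripts (0.172%) were called in all. In SSCi, D32 against D18, 64 of the 71 moved in the same direction, against 67.1% of all tested, and 30 were called the same way, where 211 (1.01%) were called in all. None of the 71 was called the opposite way in either culture. The days differ between cultures, so the sizes are given side by side only.

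**Figure D5:**
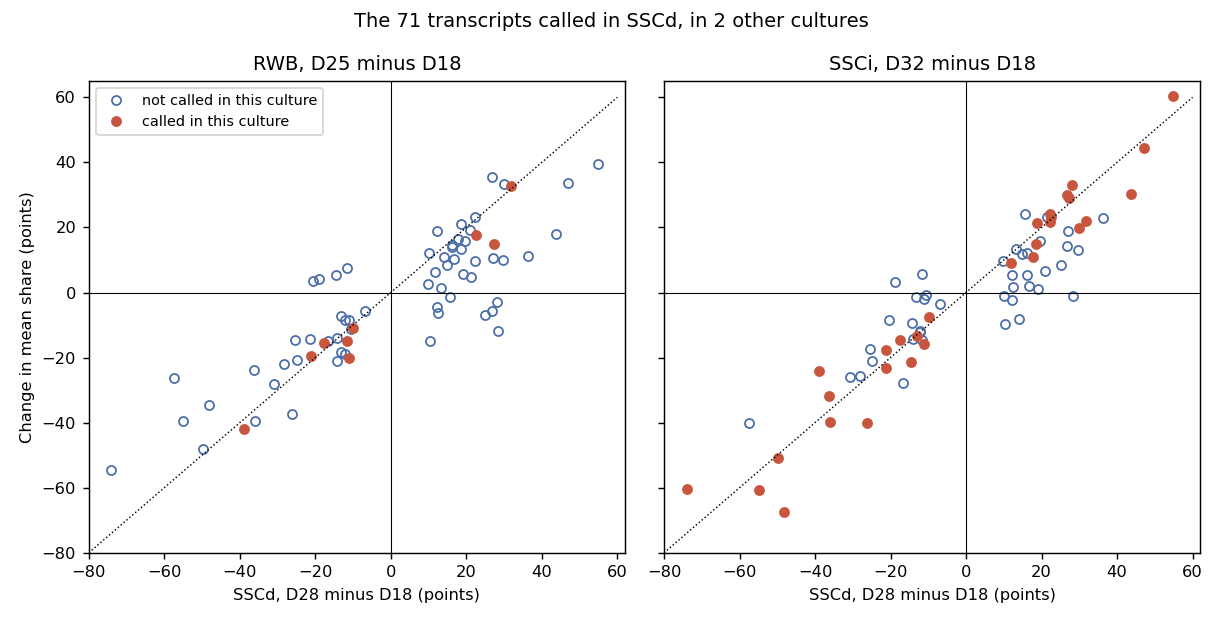
Change in mean share (percentage points) of the 71 transcripts called in SSCd, in RWB (D25 minus D18, left) and SSCi (D32 minus D18, right), against the change in SSCd (D28 minus D18), with filled red points where the other culture's own fit called the transcript and the dotted line as equal change. In RWB 59 and in SSCi 64 points lie in the quadrants of equal direction.

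Called in all 3 cultures were 8 transcripts, named here because of that: Cep290-201, Map4-204 and Hsd17b12-204 with a rise and Srsf5-203, Dnmt3a-205, Slit2-216, Abca4-203 and Rbm33-204 with a fall. Cep290-201 gained 15.0 points in RWB (edgeR adjusted p = 5.53e-05) and 28.9 points in SSCi (edgeR adjusted p = 0.000204). Slit2-216, of the axon guidance ligand Slit2, averaged 0.00284% at D28 and 21.2% at D18 in SSCd, and fell by 19.5 points in RWB (edgeR adjusted p = 0.0169) and by 23.1 points in SSCi (edgeR adjusted p = 0.0369). In SSCd it kept its call whichever library was left out, and Rbm33-204, of an RNA-binding protein, lost its call without D28 replicate 1 or 2 or D18 replicate 2 or 3 (edgeR adjusted p up to 0.303). Thrb-202 differed by -54.7 points in RWB without a call (edgeR adjusted p = 0.132) and fell by 60.4 points in SSCi (edgeR adjusted p = 0.000982). Inclusion of the Ttc8 exon was higher at the later day by 41.8 points in RWB and 55.9 points in SSCi, and that of the Bsg exon by 44.7 and 65.4 points. Of the 81 microexons that gained at least 10 points in SSCd without overlap, 76 had a higher mean at the later day in RWB and 79 in SSCi, against 272 and 283 of all 382 microexons.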

How the data were processed

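Messenger RNA of retinal organoids was sequenced in 24 libraries of 9 groups, and the 6 SSCd libraries at D28 and D18 were compared. Estimated counts per transcript were deposited by the authors, made with kallisto 0.42.5 per the submitters' processing notes, and 47.6% of the values were whole, so they were rounded before testing. The notes name GRCm38.p5, and the annotation release is not given in the sources used here. Transcript names and exons were taken from GENCODE M21, to which 98.6% of 105129 transcripts matched. The deposited gene table is not a plain sum of transcripts, so gene sums here are sums over transcripts.

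Tested transcripts had a mean share of at least 5% and a mean count of at least 10 over the 6 libraries of both days. This left 7045 genes, while 2214 genes kept fewer than 2 transcripts. Usage was tested with edgeR 4.0.16 (diffSpliceDGE, TMM normalization) in R 4.3.3, with limma 3.58.1 and DESeq2 1.42.0 as alternatives. Exon inclusion was tested the same way on included and skipped counts. Tested on simulated data, edgeR missed most changes of moderate size, and in the setting with the widest scatter it made no call at all, so that genes without a call cannot be read as unchanged. Where it made calls, false ones exceeded the nominal rate, at 21.1% of the genes called. DESeq2 recovered more changes with a still higher rate of false calls. Its rate was 34% in that setting and 54.1% in the one with the widest scatter. Kallisto divides reads that fit several transcripts by estimation, so shares of similar transcripts are not independent and a listed 0 may be an estimate.

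Members, gene lists and tests were chosen with earlier results of these data known. Transcripts named were the 12 largest rises and 12 largest falls among called changes of at least 10 points without overlap in genes averaging at least 200 counts, up to 4 members of each list, the panel whatever its result, and the 8 microexons and 8 other exons with the smallest p. Crb1-205, Srsf5-203, Dnmt3a-205, Slit2-216, Rbm33-204 and the exons of Prom1, Arl6, Cep290 and Rorb were named after their values were seen. The text gives a selection. A rod marker of the original list is not reported here, and the rod sum leaves it out.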

Additional observations from a re-analysis of the deposited data

Results flagged for a closer look

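Of the 70 called transcripts without overlap between days in SSCd, 3 differed the opposite way without overlap in RWB or SSCi. None of these differences between cultures was tested. Uimc1-207 was below the 3-count limit of 0.148% in every SSCd D28 library, against 6.38%, 9.70% and 18.7% at SSCd D18, and in SSCi it took 10.1%, 17.7% and 8.02% at D32, against 7.44% and 5.17% at D18, a difference of 5.65 points. Retsat-204 took 8.81%, 18.1% and 10.4% at SSCd D28, against 0% in every SSCd D18 library, and in RWB 0% in every D25 library, against 11.4% and 0.958% at D18, a difference of -6.16 points. Zfp385b-211 took 13.4%, 32.8% and 28.9% at SSCd D28, against less than the 3-count limit of 0.394% at SSCd D18, and in RWB 0%, 12.1% and 5.23% at D25, against 12.3% and 13.3% at D18, a difference of -7.06 points. None of the 3 was called in the culture that moved the other way (edgeR adjusted p = 1, 0.547 and 1).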

How the results depend on the processing

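Counts of calls depended on the test. DESeq2 called 561 transcripts higher and 512 lower (431 and 420 by 10 points or more, 658 genes, 100 changes of leading isoform). It held 69 of the 71 calls. Limma voom called 132 and 143 (117 and 130, 165 genes, 38 leading) and held 25. Limma on logit shares called 56 transcripts and held 31. Without a minimum share 103 and 87 were called, in 159 genes, with 2 leading changes; a gene sum of 200 gave 2 leading changes and all 24 libraries gave 5. A minimum of 20 points left 19 rises and 16 falls. Leaving out 1 library gave 25 to 102 higher and 23 to 67 lower transcripts (24 to 89 and 21 to 66 by 10 points or more), 46 to 145 genes, 0 to 6 leading changes, 15 to 48 exons more and 4 to 18 less included, 0 to 4 and 0 to 2 microexons, and 6 to 12 calls shared with RWB and 23 to 39 with SSCi. Limma on logit inclusion called 11 exons more and 5 less included, with 0 microexons more; a count minimum of 200 left 0 microexons less. DESeq2 on exons, chosen after seeing the data, called 300 and 100, with 50 and 4 microexons. The decay-transcript difference of 0.158 points became -0.113 with pooled counts. The cause of these differences was not tested. Of 37 called transcripts described, 13 kept their call whichever library was left out.

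Replicate numbers did not pair the samples: the correlations of same-numbered deviations were -0.161, -0.110 and -0.0233. With the replicate block 14 transcripts were higher and 18 lower (14 and 17 by 10 points or more, 31 genes, 0 leading changes), and 0 exons and 0 microexons were called either way. That fit held 25 of the 71 calls.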
